A study of Homo sapiens with 4 samples.

Results

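Peaks of N7-methylguanosine (m7G) were examined in the mRNAs of 5 plasma proteins that hepatocytes secrete: APOE, F2, RBP4, SERPINA1 and A2M. The genes were chosen with earlier results of these data known. They were taken by name, as every row of the deposited peak lists that carries 1 of these names. All 5 had peaks. They held 12 of the 3355 peaks of replicate 1 and 11 of the 4747 peaks of replicate 2. The cells were HepG2, an established line from a human liver tumour, grown without treatment. Poly(A) RNA was sequenced as input (2 samples) and after pull-down with an anti-m7G antibody (2 samples, here replicates 1 and 2). Each list belongs to 1 pull-down sample, and a peak is a stretch of mRNA that the authors called as enriched, with a fold enrichment and a p-value of its own. The fold and the p are the authors', the file headers do not name the libraries behind the fold, and read depth is unknown, so no interval is given for a single peak. The labels do not say whether the samples came from separate cultures. The line is a tumour line, so its mRNAs are those of hepatoma cells and not of normal liver.

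m7G is the base of the cap that closes the 5' end of an mRNA, and the same modification is also placed inside some tRNAs, rRNAs and mRNAs. An antibody against m7G can bind both forms. Plasma proteins are made on the endoplasmic reticulum of hepatocytes and leave the cell by secretion, and their mRNAs are among the most abundant of the liver. Among the 5 genes are a pair of protease inhibitors (A2M, alpha-2-macroglobulin, which traps proteases of many kinds, and SERPINA1, alpha-1-antitrypsin, which blocks neutrophil elastase), a zymogen of blood clotting (F2, prothrombin) and a pair of carriers (RBP4, which carries retinol, and APOE, which carries lipids and binds lipoprotein receptors).

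Hepatocyte and hepatoma markers with a peak in both lists included APOA1, APOB, FOXA2, GPC3 and TF. Of markers of other cells, CD68 and LYZ of 6 immune genes and ACTA2 of 4 stellate and fibroblast genes had a peak in both lists, and 0 of 4 endothelial genes did. A gene without a peak can lack m7G or lack mRNA, and the lists do not separate the cases. ALB, AFP, TTR and HNF4A had no peak in either list.

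Most peaks of the 5 genes had a low fold but a small p for their list. The exceptions in fold were the most upstream A2M peak and the APOE peaks, while the other A2M peaks were low. Support by p varied between peaks and was weakest at the most upstream RBP4 peak. The median fold of their peaks was 1.35 in replicate 1 and 1.37 in replicate 2 (mean 1.36 ± 0.0106, SD, n = 2), whereas the median over all peaks was 3.71 and 3.87. Folds were below 1.5 at 10 of the 12 peaks in replicate 1, where 6.23% of all peaks were that low, and at 8 of the 11 peaks in replicate 2, where 4.19% were. The limit of 1.5 was chosen after the values were seen. The median peak of these genes had a higher fold than 3.11% of all peaks in replicate 1 and 2.44% in replicate 2. By p the order was the other way round, since the median peak had a smaller p than 84.2% of all peaks in replicate 1 and 88.9% in replicate 2. All 12 peaks of replicate 1 and 10 of the 11 of replicate 2 were among the 50% of their list with the smallest p. The median -log10 p of all peaks with a fold below 1.5 was 5.93 in replicate 1 and 5.25 in replicate 2, close to the 5.48 and 5.07 of the other peaks, whereas for the low-fold peaks of these 5 genes it was 12.2 and 13.4. The part that mRNA abundance has in either value was not tested, because the lists hold no expression level.

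**Figure D1:**
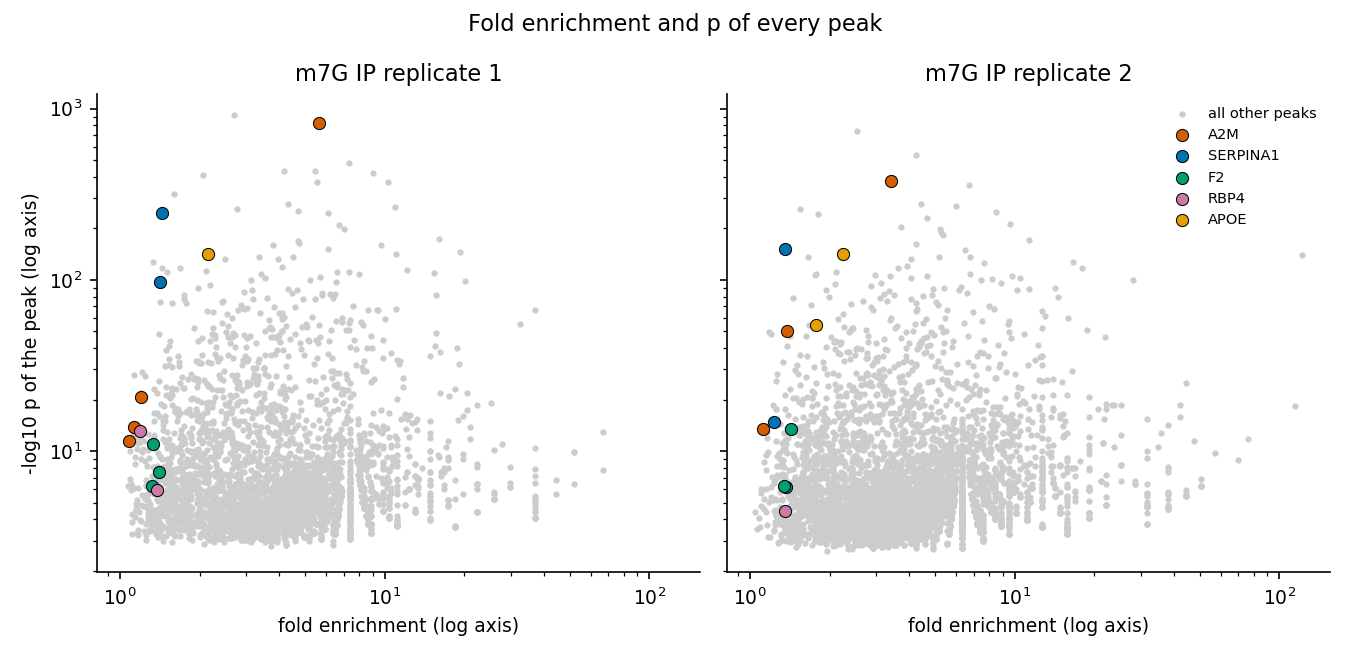
Fold enrichment (x axis, log scale) against the -log10 p of the authors' caller (y axis, log scale) for every peak of replicate 1 (left) and replicate 2 (right), with each peak of the 5 genes coloured by gene. Most coloured points lie at the left edge, below a fold of 1.5, while 1 A2M peak stands near the top of each panel at folds of 5.63 and 3.40.

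The 5 genes all had peaks in both lists, as had 51.7% of the 3769 genes that either list names. The 5 genes were chosen with earlier results of these data known. This count and the overlaps below are therefore description only. At the level of sites, 10 of the 12 peaks of replicate 1 overlapped a peak of replicate 2 by at least 50% of the shorter peak, against 65.1% of all replicate 1 peaks. In the other direction 11 of 11 peaks of replicate 2 did, against 45.4% of all replicate 2 peaks. Matched one to one, they formed 10 pairs. The folds lay within 1.5 times of each other in 9 of the 10 pairs, against 72.6% of all 2128 pairs, and the exception was the strong A2M peak. Where both folds were below 1.5, as in most of these pairs, this was bound to hold. The lowest fold of any peak was 1.07 in replicate 1 and 1.04 in replicate 2. The 2 shares therefore do not compare how well the lists agree. The fold was lower in replicate 2 in 6 pairs and higher in 4, with a median ratio of replicate 1 to replicate 2 of 1.01 (0.966 over all pairs).

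**Figure D2:**
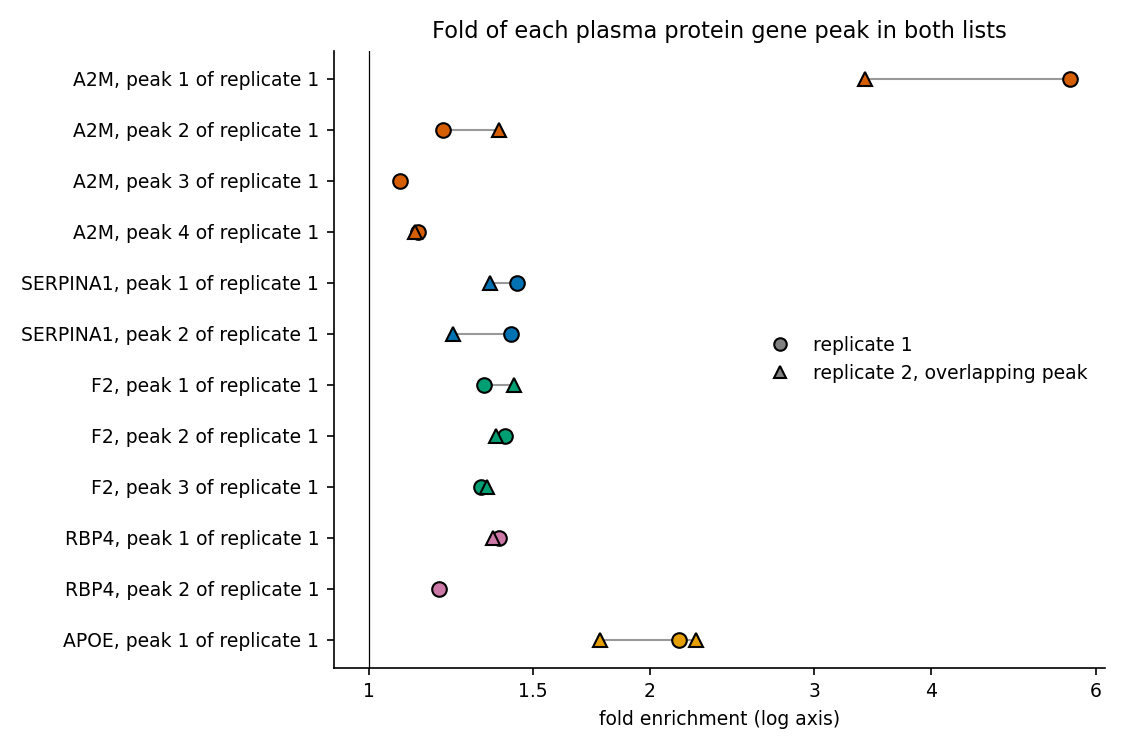
Fold enrichment (x axis, log scale, with a line at 1) of each replicate 1 peak of the 5 genes (circles) and of the replicate 2 peaks that overlap it (triangles); peaks of a gene are numbered from 5' to 3'. The pairs of F2 and RBP4 nearly coincide, the first A2M peak spans 3.40 to 5.63, and the third A2M peak and the second RBP4 peak have no partner.

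A2M had the strongest peak of the 5 genes and also the weakest. Its RefSeq gene span (GRCh38.p14) lies on the minus strand of chromosome 12 from 9067708 to 9116229. The most upstream peak joined a block of 199 nt from 9115764 to 9115962 to a block of 70 nt from 9113474 to 9113543 across a gap of 2220 nt. Both lists gave exactly the same blocks. Its fold was 5.63 in replicate 1 and 3.40 in replicate 2, a ratio of 1.66, the largest of any pair of these genes. By p it ranked 2 of 3355 and 3 of 4747, with -log10 p of 829 and 378, and the p itself is listed as 0 in both. By fold it ranked only 877 and 2801, so that it lay above the median fold in replicate 1 and below it in replicate 2. The outer edge of the peak lay 267 nt inside the 5' end of the span, and its midpoint 401 nt inside. No RefSeq start position was found for A2M, so whether the peak begins at a start inside the span was not tested.

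The other A2M peaks were of a different order. The second also had identical blocks in both lists, 145 nt from 9098607 to 9098751 and 35 nt from 9095666 to 9095700, joined across 2906 nt. Its fold was 1.20 in replicate 1 and 1.38 in replicate 2, and its -log10 p was 20.6 and 50.3. By fold it ranked 3314 and 4623, and by p 345 and 110. Identical blocks were found in 2 of the 10 pairs of these genes, both of them in A2M, against 10.3% of all pairs. The most downstream peak, 6903 nt from the 3' end of the span, started at 9074611 and ended at 9074760 in replicate 1 (150 nt, fold 1.13) and at 9074730 in replicate 2 (120 nt, fold 1.12). By fold this peak ranked 3342 of 3355 and 4740 of 4747, while its -log10 p of 13.9 and 13.4 ranked 515 and 576. A further peak stood in replicate 1 alone, with blocks of 35 nt from 9077346 to 9077380 and 115 nt from 9076822 to 9076936 across a gap of 409 nt. Its fold of 1.08 ranked 3354 of 3355, beside a lowest fold of 1.07 in that list, and its -log10 p of 11.4 ranked 652. With 4 peaks in replicate 1, A2M was among 47 of 2511 genes with as many or more, and with 3 in replicate 2 among 351 of 3205. The span of KLRG1, a lymphocyte receptor gene annotated on the plus strand, runs across A2M in RefSeq, and it had 0 peaks in either list.

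SERPINA1, on the minus strand of chromosome 14 from 94376747 to 94390635, had 2 peaks in each list, each in a single block. The upstream peak ran from 94382939 to 94383238 in replicate 1 (300 nt) and from 94382969 to 94383178 in replicate 2 (210 nt), with midpoints 54.3% and 54.4% of the way along the gene span. Its fold was 1.44 and 1.35. Its -log10 p of 245 and 152 ranked 15 of 3355 and 18 of 4747, against ranks of 3185 and 4642 by fold. The best rank by p of any F2 or RBP4 peak was 544 in replicate 1 and 576 in replicate 2. The downstream peak started at 94378331 in both lists and ended at 94378570 in replicate 1 (240 nt, fold 1.42) and at 94378540 in replicate 2 (210 nt, fold 1.23). Its edge lay 1584 nt from the 3' end of the span in both. The support for it differed more than its fold, with a -log10 p of 96.9 in replicate 1 and 14.7 in replicate 2, at ranks of 50 and 525. By fold it ranked 3198 and 4711.

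F2 had peaks at the same 3 places in both lists. The gene lies on the plus strand of chromosome 11 from 46719213 to 46739506, and all its peaks were spliced, that is, made of more than 1 block. The first peak joined 3 blocks. It began with 12 nt from 46723274 to 46723285 and 137 nt from 46723382 to 46723518 in both lists, and ended with a block from 46725859 that reached 46725919 in replicate 1 and 46725889 in replicate 2. Its fold was 1.33 and 1.43, and its -log10 p 11 and 13.4. It ranked 3264 and 4601 by fold and 678 and 576 by p.

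The second F2 peak joined 105 nt from 46726069 to 46726173, in both lists, to a block from 46726498 that ended at 46726573 in replicate 1 and 46726543 in replicate 2. Its fold of 1.40 and 1.37 ranked 3218 and 4629. Its -log10 p of 7.53 and 6.13 ranked 1080 and 1708. The third peak crossed the same gap of 542 nt in both lists but was shifted downstream in replicate 2. In replicate 1 it ran from 46728735 to 46729456 (180 nt in blocks, fold 1.32), and in replicate 2 from 46728825 to 46729486 (120 nt in blocks, fold 1.34), with 90 nt in common. It ranked 3270 and 4650 by fold, and its -log10 p of 6.22 and 6.24 ranked 1399 and 1665. Over the 3 pairs the ratio of replicate 1 to replicate 2 thus stayed between 0.93 and 1.02. The midpoints of the F2 peaks lay between 20.9% and 50.3% of the way along the gene span, and none was near either end. As many peaks or more were found in 171 of 2511 genes of replicate 1 and 351 of 3205 genes of replicate 2.

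RBP4, on the minus strand of chromosome 10 from 93591694 to 93601744, was the only one of the 5 genes with a peak at the 5' end of its span. In both lists a peak began at 93601744, the outermost start of the gene in RefSeq. Replicate 2 gave 61 nt in 1 block down to 93601684 (fold 1.36). Replicate 1 gave 79 nt down to 93601666, joined across 694 nt to 12 nt from 93600960 to 93600971 (91 nt in all, fold 1.38). These folds ranked 3233 in replicate 1 and 4635 in replicate 2. The -log10 p of 5.92 and 4.45, at ranks of 1509 and 2923, was the weakest support among the peaks of these genes in each list. RefSeq lists 3 starts for RBP4, at 93601744, 93601513 and 93601235. The peak held the first of them in both lists, and the other two lay in the gap of the replicate 1 peak. Starts inside the spans of the other genes are not given here, and none was found for A2M. The first 30 bases of this RBP4 peak are shown because it is the only peak of these genes that reaches the 5' end of a RefSeq span. They are taken from the RefSeq start windows (GRCh38.p14), minus strand, chromosome 10 from 93601715 to 93601744, with each G in capitals.

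RBP4 start: atcctttataaaatGaaaaactacttGGat

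The stretch holds 3 G. Over the first 50 bases G made up 10%, against a median of 30% over 35116 RefSeq start windows, and 99.0% of windows had as many G or more. Over the whole 5' block the share of G was 19.0% in replicate 1 and 13.1% in replicate 2. The part of the cap in a peak that starts at the first base was not tested. The second RBP4 peak stood in replicate 1 alone. It joined 49 nt from 93600393 to 93600441 to 162 nt from 93593874 to 93594035 across 6357 nt, the widest gap in these genes, with a fold of 1.19 (rank 3320) and a -log10 p of 13.1 (rank 544).

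APOE, on the plus strand of chromosome 19 from 44905796 to 44909393, had the longest peak. In replicate 1 it was a single peak of 1037 nt, with a block of 174 nt from 44907779 to 44907952 joined across 580 nt to a block of 863 nt from 44908533 to 44909395. In replicate 2 there were 2 unspliced peaks, 209 nt from 44908536 to 44908744 and 504 nt from 44908892 to 44909395. Both lay inside the replicate 1 peak. The fold was 2.15 in replicate 1, and in replicate 2 it was 1.77 upstream and 2.24 downstream. APOE was thus above the other low peaks of the 5 genes but still below the median of all peaks, at ranks of 2682 of 3355 by fold and of 4318 and 3906 of 4747. By p the ranks were 26 in replicate 1 and 97 and 20 in replicate 2, with -log10 p of 141, 54.5 and 142. The downstream edge in both lists lay 2 nt beyond the end of the RefSeq span, and the midpoint of the downstream peak of replicate 2 lay 250 nt from that end.

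**Figure D3:**
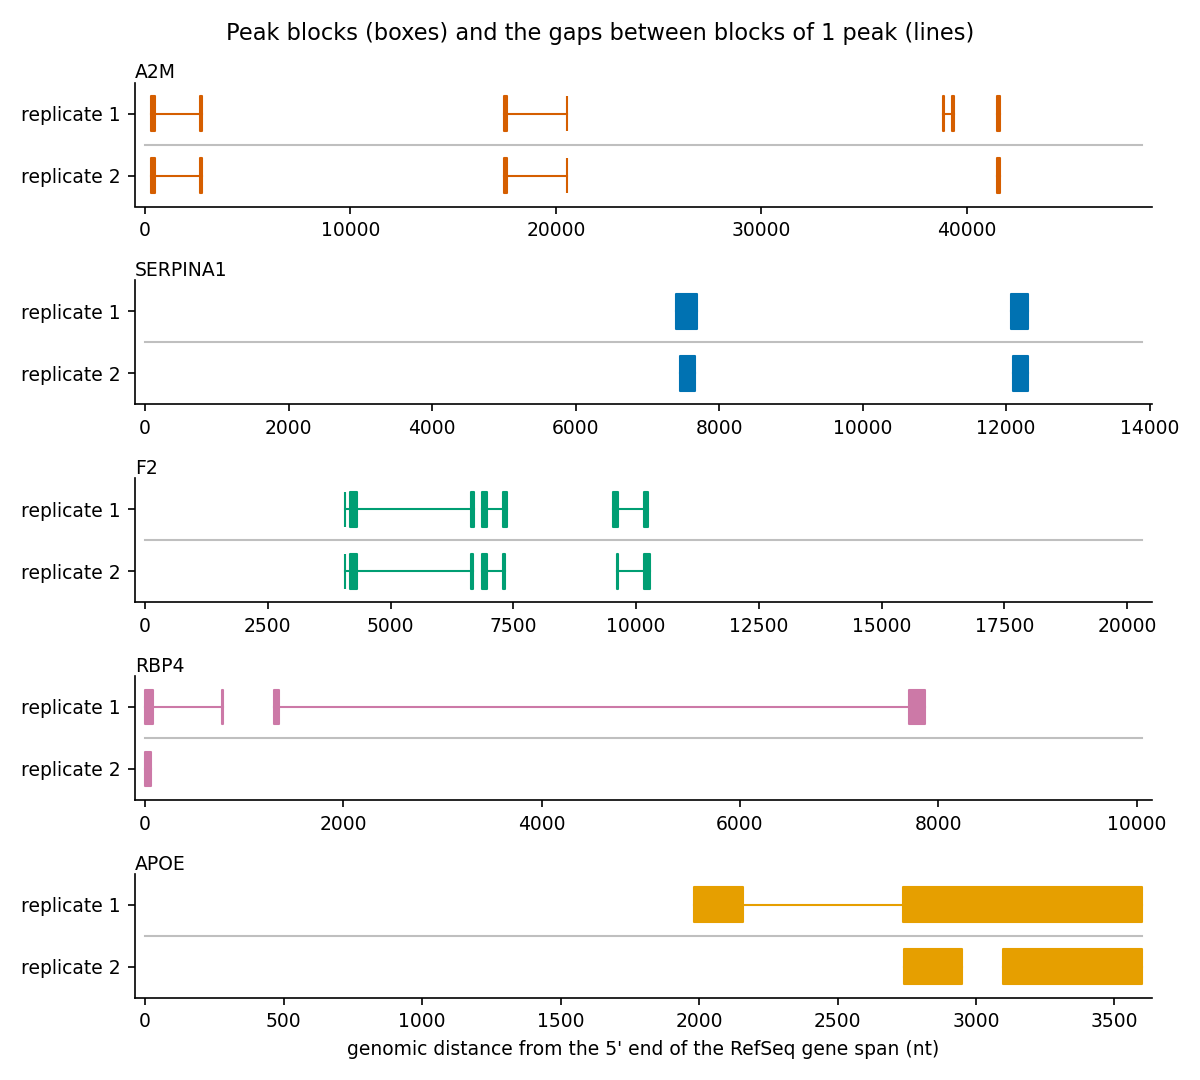
Peak blocks of the 5 genes in replicate 1 (upper row of each panel) and replicate 2 (lower row), as genomic distance in nt from the 5' end of the RefSeq span (x axis; grey line, the whole span). Boxes are blocks, drawn with a small minimum width, and coloured lines are the gaps between blocks of 1 peak. The most upstream RBP4 peak of each list starts at 0. F2 peaks repeat in the upstream part of the gene, and the most downstream APOE peak of each list reaches the 3' end.

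Many peaks of these genes joined blocks that lie apart in the genome. Spliced peaks were 9 of 12 in replicate 1, where 26.4% of all peaks were spliced, and 5 of 11 in replicate 2, where 28.2% were. The blocks of replicate 1 were separated by 10 different gaps and those of replicate 2 by 6, and all 6 had the same edges in replicate 1. Peaks of the pairs were shorter in replicate 2 in 8 of 10 cases and equal in 2, whereas 32.8% of all pairs were shorter in replicate 2. In 9 of the 10 pairs, all but APOE, the numbers of bases that only 1 list covered were multiples of 30 nt (0 included), which held for 59.9% of all pairs. A single difference of 30 nt was the commonest, found in 5 pairs.

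With the 5 genes set aside, low folds were common among peaks of the other plasma protein genes. They were less common by gene, when each gene was taken only at its peak with the smallest p. Of 86 such genes, 26 had a peak, 12 of them in both lists (46.2% of the 26, against the 51.7% over all genes given above). Their median fold was 1.28 over 33 peaks in replicate 1 and 1.31 over 28 peaks in replicate 2. Folds were below 1.5 at 21 and 16 of these, against 6.23% and 4.19% of all peaks. Counted by gene, at the peak with the smallest p, the fold was below 1.5 in 7 of 19 genes in replicate 1 and 9 of 19 in replicate 2. The share over all genes counted in this way was not computed. Together with the 5 genes, the other plasma protein genes supplied 31 of the 209 low-fold peaks of replicate 1 and 24 of the 199 of replicate 2. Of all 3355 peaks of replicate 1, the 5 genes held 12 and the other plasma protein genes 33. Of all 4747 peaks of replicate 2, they held 11 and 28.

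Taken at the peak with the smallest p, 6 of the 12 genes in both lists had a fold below 1.5 in each. These were APOB, the structural protein of low-density lipoprotein (1.25 in replicate 1 and 1.23 in replicate 2), TF, the iron carrier transferrin (1.14 and 1.10), AMBP, the precursor of alpha-1-microglobulin and bikunin (1.15 and 1.16), AHSG, the calcium-binding fetuin A (1.33 and 1.18), AGT, the precursor of angiotensin (1.19 and 1.30), and C3, the central complement component (1.41 and 1.35). C3 had 7 peaks in replicate 1 and 4 in replicate 2, with folds from 1.10 to 1.41 and from 1.13 to 1.35. The p of AHSG was the smallest among these, with a -log10 p of 128 and 49.9.

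At the peak with the smallest p, folds of 1.5 or more in both lists were found for 4 genes. They were SERPINF2, the inhibitor of plasmin (2.90 and 4.14), HGFAC, the activator of hepatocyte growth factor (3.22 and 4.66), F7, a clotting protease (3.71 and 3.05), and CFB of the alternative complement pathway (1.53 and 2.96). APOA1, the main protein of high-density lipoprotein, had 1.98 and 1.15, and FN1, fibronectin, had 1.58 and 1.15. Further peaks of SERPINF2 had a fold of 1.32 in each list, while the others of the 4 genes had none below 1.5. The lowest fold of APOA1 in replicate 1 was 1.11, and that of FN1 was 1.19 in replicate 1 and 1.04 in replicate 2. Each of the other 14 genes had its peak in 1 list, with a fold below 1.5 in 2 of them. In replicate 1 these were PROS1 (5.19), APOM (2.09), VTN (1.72), A1BG (1.67), SERPINF1 (1.57), APOC2 (1.51) and APOC1 (1.31). In replicate 2 they were APOA5 (3.87), SERPINA10 (3.28), SERPING1 (1.96), F5 (1.82), PROC (1.64), SERPINA5 (1.57) and ITIH3 (1.23). No other gene of the list had a peak.

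Low folds were also found outside secreted proteins. Peaks of cytosolic ribosomal protein genes, whose mRNAs are abundant in every growing cell, had a median fold of 1.34 over 18 peaks in replicate 1 and 1.45 over 15 peaks in replicate 2, with a median -log10 p of 21.2 and 20.4. Peaks of hepatocyte transcription factor genes had a median fold of 3.30 over 15 peaks and 2.90 over 21 peaks, with a median -log10 p of 5.75 and 4.88. Spliced peaks were 1 of 15 and 0 of 21 for the transcription factors, and 15 of 18 and 12 of 15 for the ribosomal proteins. Over all peaks the shares were 26.4% and 28.2%. Exon models were not used, so the counts do not allow for genes whose peaks cannot be spliced. No test of these differences was run, the part of mRNA abundance in them was not tested, and each list is 1 sample.

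**Figure D4:**
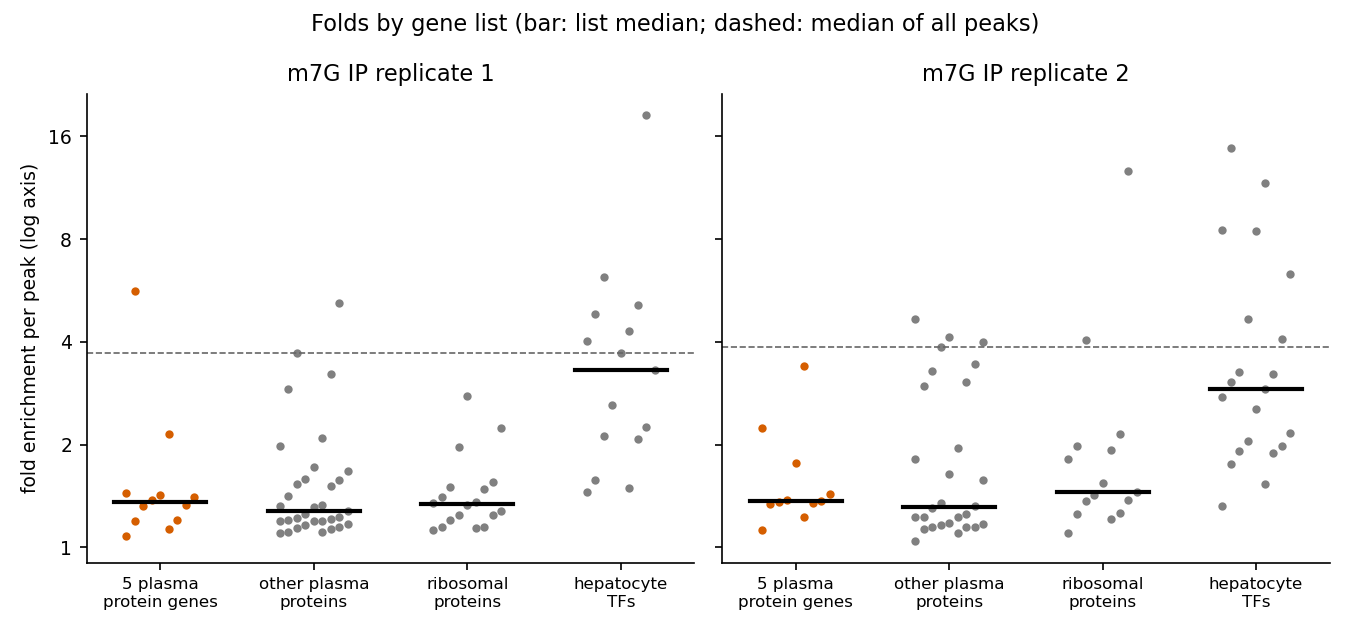
Fold enrichment of single peaks (y axis, log scale) in replicate 1 (left) and replicate 2 (right) for the 5 genes, the other plasma protein genes, cytosolic ribosomal protein genes and hepatocyte transcription factor (TF) genes; bars are list medians, the dashed line is the median of all peaks, and points are spread sideways for display. The medians of the first 3 lists lie between 1.28 and 1.45, and those of the transcription factors at 3.30 and 2.90.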

How the data were processed

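The data are 2 deposited peak lists, 1 per m7G IP sample, from stranded mRNA libraries; input samples had no values used here. The submitters' processing notes name STAR (no version) and GRCh38; the peak caller and its settings were not given in the sources used here. Per the file headers, each deposited row has a p-value, a log10 p and log10 FDR (used as scores of the authors' caller) and a fold (a ratio). Very small deposited p-values are listed as 0, so ranking used the log10 p.

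Positions were converted to count from 1. Rank 1 is the highest fold or smallest p, and a percentile is the share of the list's peaks with a lower value. Length and overlap were counted in blocks, within the same gene and strand, and pairs were matched one to one by shared bases. Gene spans and start windows (250 bases before to 50 after a start) came from RefSeq tables of GRCh38.p14. Start windows were found for 4 of the 5 genes, all but A2M. Exon models and a genome were not used, so UTR or coding position and most peak sequences are not given.

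The genes and lists were chosen with earlier results of these data known, and no test was run. Every peak of the 5 genes is named, as is every other plasma protein gene with a peak; the remaining lists are given by counts and medians. Overlap and ranks were tested on simulated data. Alternatives were other overlaps, the smaller-p 50% of each list, 1 peak per gene, ranks within spliced or unspliced peaks, peak edges and each replicate alone. Python 3.11.15, numpy 2.4.6, pandas 2.3.3 and matplotlib 3.10.9 were used. Of the cell type markers, 1 item is not reported here.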

Additional observations from a re-analysis of the deposited data

How the results depend on the processing

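With 80% overlap of both peaks, genes of the 5 with a shared peak numbered 3 (A2M, F2 and SERPINA1) against 5 by name, overlapping peaks 12 against 21 of 23, and other plasma protein genes 5 against 12; fewer peaks pass a stricter overlap by construction. With 1 peak per gene, the smallest p, the median fold was 1.44 against 1.36, its percentile 4.03 against 2.78 and the percentile by p 99.4 against 86.5; this choice favours small p by construction. Among peaks of the same block class the fold percentile was 3.81. Within the smaller-p 50% of each list, 4 of the 5 genes (all but RBP4) and 8 of the other plasma protein genes had peaks in both lists. The smaller-p 50% and the remaining alternatives moved counts by at most 1.5 times. They moved medians by less than 1 SD between replicates (for the fold ratio, between pairs). With a replicate left out this was bound to hold, because the mean of both replicates lies within 1 SD of either. The values given above for 80% overlap, 1 peak per gene and the same block class moved by more than these limits. Without one replicate, the median fold ranged from 1.35 to 1.37, its percentile from 2.44 to 3.11, the percentile by p from 84.2 to 88.9, and the median distance from the 5' end from 6930 to 7660 nt. Values shared between lists cannot be had from a single replicate. No paired analysis was possible because the input samples gave no values to pair. Unknown read depth limits the calls.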
